A study of Mus musculus with 16 samples.

Results

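Nuclear genes for the subunits of the respiratory chain and of ATP synthase were examined in mouse liver. Members were all protein-coding genes whose symbol begins with Ndufa, Ndufb, Ndufc, Ndufs, Ndufv, Sdha to Sdhd, Uqcr, Cox4 to Cox8 or Atp5, with the Ndufaf and Sdhaf assembly factors left out. Of 46078 genes in the count table, 85 were members: 38 of complex I, 4 of complex II, 8 of complex III, 18 of complex IV and 17 of complex V. The symbol rule places Ndufa4 in complex I, although its protein is now assigned to complex IV, and it takes in Atp5s, whose product is not a core part of ATP synthase. The 37 genes of mitochondrial DNA in the table, 13 of them protein coding, were all listed at 0, so the subunits made inside mitochondria were not measured.

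The livers came from C57BL/6 mice aged 22 weeks, all with obesity brought on by diet and with fatty liver. There were 4 groups of 4 libraries: Dicretin, an agonist of both the GLP-1 and the glucagon receptor; Semaglutide, an agonist of the GLP-1 receptor alone; Calorie restricted, in which food was limited until weight loss was equivalent; and Saline, the vehicle. Libraries are named by group and the number in their sample title, and p-values measure the spread between these samples. Library totals ran from 12.144 to 18.755 M counts, and the members took 1.90% to 2.33% of them in Dicretin livers, 1.49% to 2.40% in Semaglutide livers, 1.45% to 1.69% in Calorie restricted livers and 1.58% to 1.76% in Saline livers.

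Oxidative phosphorylation passes electrons from NADH through complex I, or from succinate through complex II, to ubiquinone, then through complex III and cytochrome c to complex IV, which reduces oxygen. Complexes I, III and IV pump protons, and complex V uses the gradient to make ATP. In hepatocytes this chain burns the reducing power of fatty acid oxidation and pays for gluconeogenesis and ureagenesis.

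A pair of libraries stood apart before any comparison. Member transcripts are short, with a median exon length of 738.5 bases against 2725 bases over all tested genes, and short genes as a class were high in 1 library and low in another. Among genes that are no members, the trend of each gene's log2 deviation from its mean over all libraries was read at the members' median length. It was 0.66 in Semaglutide 11 and -0.39 in Dicretin 14, against -0.29 to 0.19 in the other libraries. Member counts are therefore given as measured, after a length trend was removed from every library (length-corrected), and without both libraries. The trend removed was fitted on all tested genes, members included. The levels of some cell type markers also differed. Summed hepatocyte markers were 76750 to 94620 CPM (counts scaled to a library of 1 M) in Dicretin livers and 94700 to 116200 CPM in Saline livers. Among 6 tested hepatocyte markers, Alb (albumin) fell to 59620 ± 10120 CPM in Dicretin livers, against 81650 ± 7860 CPM in Saline livers, and Cps1, the first enzyme of the urea cycle, rose to 5858 ± 595 CPM in Dicretin livers, against 2003 ± 379 CPM in Saline livers (SD, n = 4 each; edgeR adjusted p = 0.0222 and 1.6e-06). None of 6 stellate cell and 5 cholangiocyte markers lay above a log2 fold change of 0, and 1 of each was lower, Col3a1 (log2 -1.51) and Spp1 (-0.89). These calls are 16.7% and 20% of their lists, near the 19.2% of all tested genes that were lower. Of 5 red blood cell markers, 2 were lower (40%). In Dicretin 64, 4 pancreas markers summed to 780.6 CPM. Their part in the members' results was not tested. In whole liver, fewer cells of a type and less RNA per cell cannot be told apart.

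The first comparison asked how the co-agonist changed these genes relative to vehicle. Of 80 members that passed the filter on low counts, 23 were higher and 1 was lower in Dicretin livers than in Saline livers, at a Benjamini-Hochberg adjusted p under 0.05 in edgeR's quasi-likelihood test over 12910 genes. Over all tested genes, 17.5% were higher and 19.2% lower. The median log2 fold change was 0.46 over the members and -0.01 over all tested genes, and 75 of the 80 members lay above 0. The 5 members not tested, Cox4i2, Cox6a2, Cox7b2, Cox8b and Cox8c, all belong to complex IV and had 0 to 7 counts in every library other than Semaglutide 15. After length correction 57 members were higher and 2 lower (all genes 25.9% and 18.1%), and all 23 genes higher before remained among them. The corrected median log2 fold change was 0.50 over the members and 0.09 over all tested genes, so both medians rose. Without Semaglutide 11 and Dicretin 14, 60 were higher and 2 lower (all genes 20.6% and 21.8%). The count as measured rested on single livers: it was 12 without Saline 35 (all genes 13.9% higher), 15 without Dicretin 65 (16.2%), 42 without Dicretin 14 (17.9%) and 47 without Semaglutide 11 (19.9%). The last belongs to neither group but shares the scaling and the estimate of spread.

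**Figure D1:**
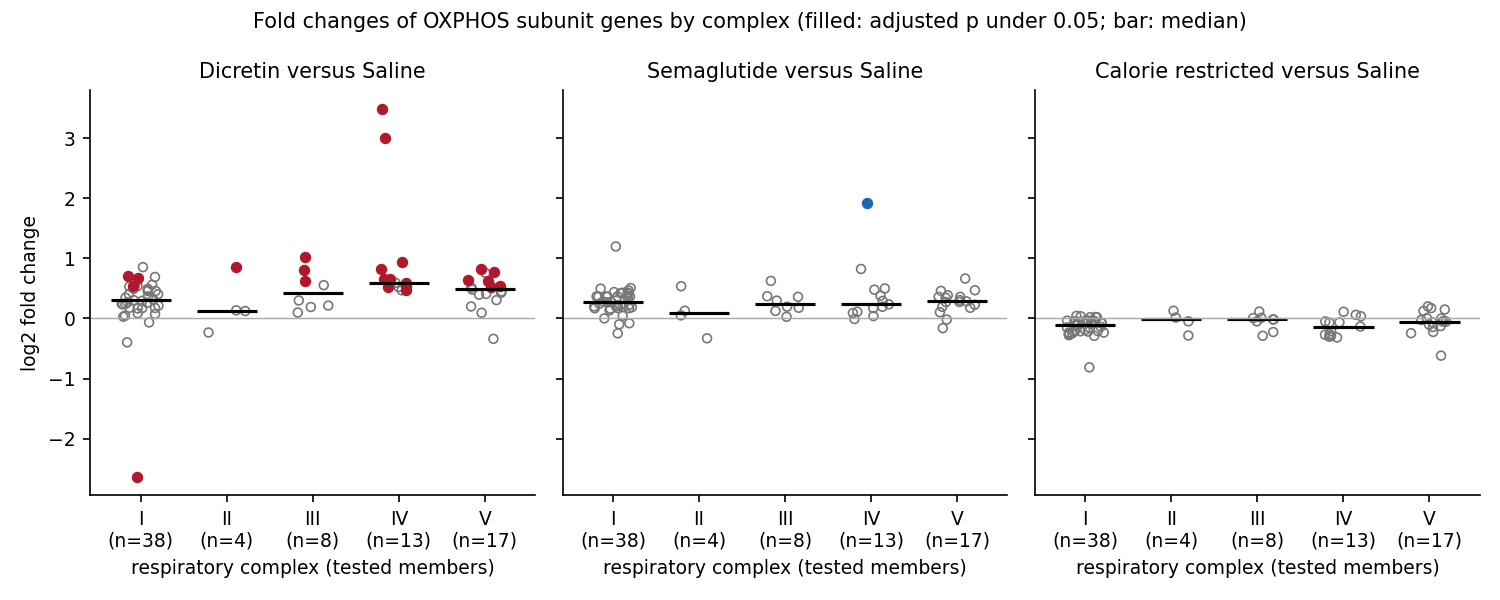
Log2 fold changes (vertical axis) of the tested members of each respiratory complex, in the comparisons of Dicretin, Semaglutide and Calorie restricted with Saline (4 livers a group); filled points had an adjusted p under 0.05 and bars are medians. Complex IV has the highest median in the Dicretin panel, 0.59, and the Calorie restricted panel holds no filled point.

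Complex I takes electrons from NADH. Of its 38 members 3 were higher, among them Ndufb11 and Ndufa12, and its median log2 fold change was 0.31. The share higher, 7.89%, was below the 17.5% of all tested genes. Ndufs1, the core subunit with the most iron-sulfur clusters, overlapped between groups, at 135.6 to 162.1 CPM in Dicretin livers and 138.9 to 147.1 CPM in Saline livers (log2 0.03 ± 0.11, adjusted p = 0.854). Ndufv1, which binds FMN and NADH, had a log2 fold change of 0.30 and did not pass (adjusted p = 0.103). The Ndufa12 call (log2 0.53, adjusted p = 0.0482) was lost in 13 of 29 alternative settings, 10 of which left out 1 library. That of the accessory subunit Ndufb11 (0.67, adjusted p = 0.0211) was lost without Dicretin 65, Saline 35 or Saline 50, with an adjusted p of up to 0.0582. After length correction 21 complex I members were higher and 2 lower (all genes 25.9% and 18.1%), or 22 and 1 with the trend fitted without the members.

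In complex II, succinate dehydrogenase, 1 of 4 members was higher (25%, all genes 17.5%), a share that rests on 1 gene. Sdhd, a membrane anchor, had 259.7, 426.5, 464.1 and 526.0 CPM in Dicretin livers, against 207.4, 238.2, 215.6 and 265.9 CPM in Saline livers. Dicretin 14 overlapped the Saline range and the other Dicretin livers lay above it (log2 0.85 ± 0.21, adjusted p = 0.00386). Sdha, the flavoprotein that oxidises succinate, had 613.2, 559.3, 449.6 and 362.6 CPM in Dicretin livers, against 589.4, 600.4, 571.9 and 570.4 CPM in Saline livers. Its Dicretin values spanned both sides of a narrow Saline range, and the difference did not pass (log2 -0.23 ± 0.16, adjusted p = 0.259). Without Semaglutide 11 and Dicretin 14, Sdha was lower (log2 -0.35, adjusted p = 0.0425), the second such member beside Ndufa4l2. Sdhb and Sdhc, the iron-sulfur subunit and the other anchor, had log2 fold changes of 0.14 and 0.12 and did not pass.

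In complex III, 3 of 8 members were higher (37.5%, all genes 17.5%). Uqcrh, the acidic hinge protein that helps cytochrome c bind, had 240.8, 457.0, 439.1 and 484.3 CPM in Dicretin livers, against 161.0, 191.4, 217.1 and 226.2 CPM in Saline livers. All Dicretin livers were above all Saline livers (log2 1.03 ± 0.29, adjusted p = 0.0104). Uqcr10, a small accessory subunit, rose by 0.81 ± 0.26 (adjusted p = 0.0196), and Uqcrfs1, the Rieske iron-sulfur protein, by 0.62 ± 0.20 (adjusted p = 0.0229). Both calls were lost without Saline 35, and that of Uqcrfs1 also without Dicretin 64, with an adjusted p of up to 0.0528 for Uqcr10 and 0.079 for Uqcrfs1. The large core proteins Uqcrc1 and Uqcrc2 had log2 fold changes of 0.19 and 0.21 and did not pass before length correction, after which both did.

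Complex IV, cytochrome c oxidase, held the most calls. Of its 13 tested members, 10 were higher (76.9%, all genes 17.5%). All 13 had a log2 fold change of at least 0.47, with a median of 0.59. Among them Cox6b2 passed the filter on low counts only through the Dicretin livers. Cox4i1, the regulatory subunit that binds ATP, had 590.8, 971.6, 1042 and 1159 CPM in Dicretin livers, against 461.2, 545.0, 547.2 and 565.5 CPM in Saline livers. The lowest Dicretin value, in Dicretin 14, was just above the highest Saline value (log2 0.83 ± 0.25, adjusted p = 0.015). The other common subunits Cox7a2 (0.93, adjusted p = 0.00855), Cox6a1 (0.66, adjusted p = 0.0153) and Cox8a (0.59, adjusted p = 0.0129) kept their calls in all 29 settings. Cox5a, Cox5b, Cox7b and Cox7a2l, the last a factor that joins complexes III and IV, rose by 0.47 to 0.66 with adjusted p of 0.0328 to 0.0467. These calls were lost in 5 to 9 settings, and all 4 were lost without Saline 35, without Saline 50 and without Dicretin 23. The highest adjusted p over the settings was 0.085 for Cox5a, 0.128 for Cox5b, 0.106 for Cox7b and 0.127 for Cox7a2l. After length correction all 13 were higher (all genes 25.9%).

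The share of complex IV within the chain gave a measure that does not depend on library scaling. The summed CPM of complex IV over that of complex I was 0.693 to 0.743 in Dicretin livers, 0.561 to 0.594 in Semaglutide livers, 0.563 to 0.590 in Calorie restricted livers and 0.581 to 0.607 in Saline livers. Every Dicretin liver, Dicretin 14 included, lay above every other liver, while Semaglutide 11 (within its group's range) did not stand out. As a sum over members this ratio was given no test. It averaged 0.716 ± 0.023 in Dicretin livers and 0.592 ± 0.011 in Saline livers (SD, n = 4 each). Leaving out Cox4i1, the complex IV gene with the most counts, gave 0.534 to 0.578 in Dicretin livers and 0.467 to 0.492 in Saline livers. The complex I sum includes Ndufa4, whose protein is now assigned to complex IV, and the ratio was not taken without it. The median exon lengths of the complexes differ, at 594.5 bases for complex IV and 771.5 for complex I. The ratio of CPM per kb was 0.828 to 0.882 in Dicretin livers and 0.718 to 0.740 in Saline livers. Division by a fixed length reweights the genes and cannot remove a length trend that differs between libraries. With that trend removed, complex IV minus complex I in median log2 deviation was 0.21 to 0.34 in Dicretin livers. It was -0.31 to -0.09 in Semaglutide livers, -0.16 to -0.04 in Calorie restricted livers and -0.14 to -0.04 in Saline livers. The corresponding ratio for complex III, another set of short genes, was 0.429 to 0.439 in Dicretin livers, 0.409 to 0.416 in Semaglutide livers, 0.424 to 0.431 in Calorie restricted livers and 0.405 to 0.417 in Saline livers. Dicretin livers were above Saline livers in that ratio too, by a smaller step.

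**Figure D2:**
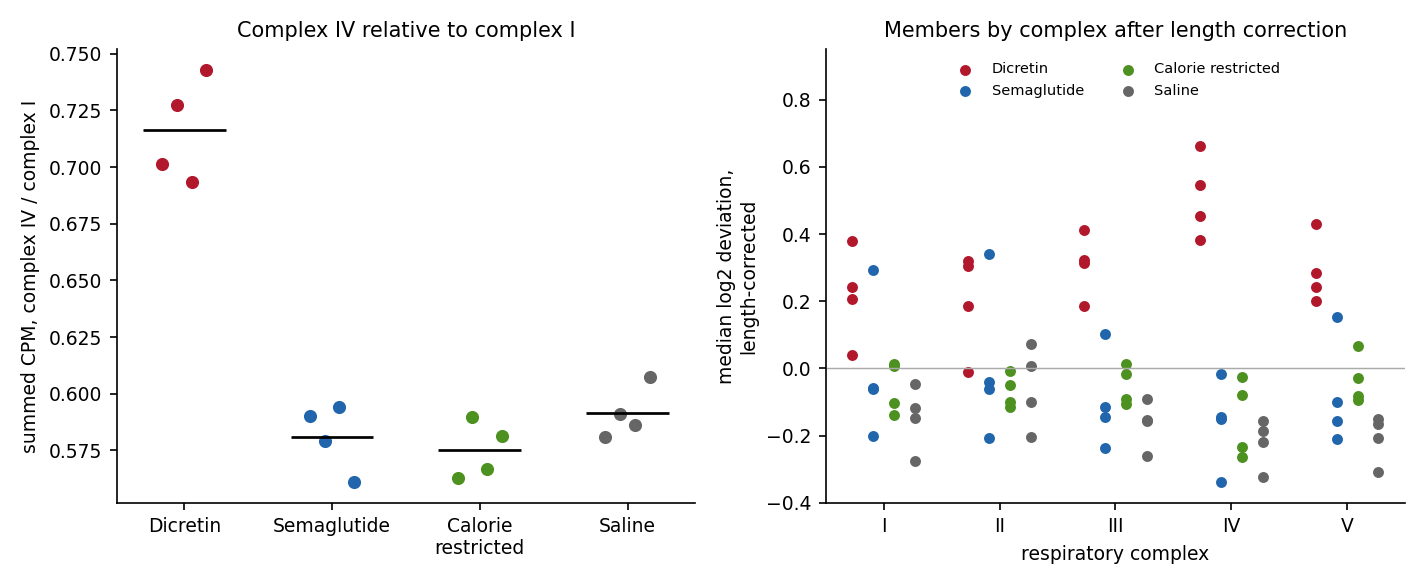
Left, summed CPM of complex IV members divided by that of complex I members, 1 point a liver with the group mean as a bar, on an axis that does not start at 0; right, median length-corrected log2 deviation of the members of each complex in each liver. Dicretin livers lie at 0.693 to 0.743 on the left, above all others, and for complex IV on the right at 0.38 to 0.66, where all other livers are below 0.

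In complex V, 6 of 17 members were higher (35.3%, all genes 17.5%). Atp5b, the catalytic beta subunit, had 1905, 2022, 1970 and 2011 CPM in Dicretin livers, against 1228, 1252, 1233 and 1359 CPM in Saline livers. The spread within each group was small beside the gap, and Dicretin 14 was no exception for this longer transcript (log2 0.64 ± 0.12, adjusted p = 0.000321). Atp5a1, the alpha subunit that alternates with beta in the same ring, had 1187, 1379, 1122 and 1194 CPM in Dicretin livers, against 1127, 1151, 1170 and 1123 CPM in Saline livers. These ranges overlapped, and Atp5a1 did not pass (log2 0.10 ± 0.12, adjusted p = 0.547). The delta subunit Atp5d rose by 0.52 and Atp5o, which ties the catalytic head to the stalk, by 0.78, with adjusted p of 0.0153 and 0.0159. Of the genes for the c subunit of the rotor, whose mature protein is the same for all of them, Atp5g1 rose by 0.62 and Atp5g2 by 0.54 (adjusted p = 0.0131 and 0.023). Atp5g3, the c-subunit gene with the most counts, had a log2 fold change of 0.20 (adjusted p = 0.411). Atp5j2, a membrane subunit, rose by 0.82 (adjusted p = 0.0245). The calls of Atp5o, Atp5g2 and Atp5j2 were lost without Saline 35 or Dicretin 65, and the last 2 also without Dicretin 64, with adjusted p of up to 0.0527, 0.0744 and 0.068 in that order.

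**Figure D3:**
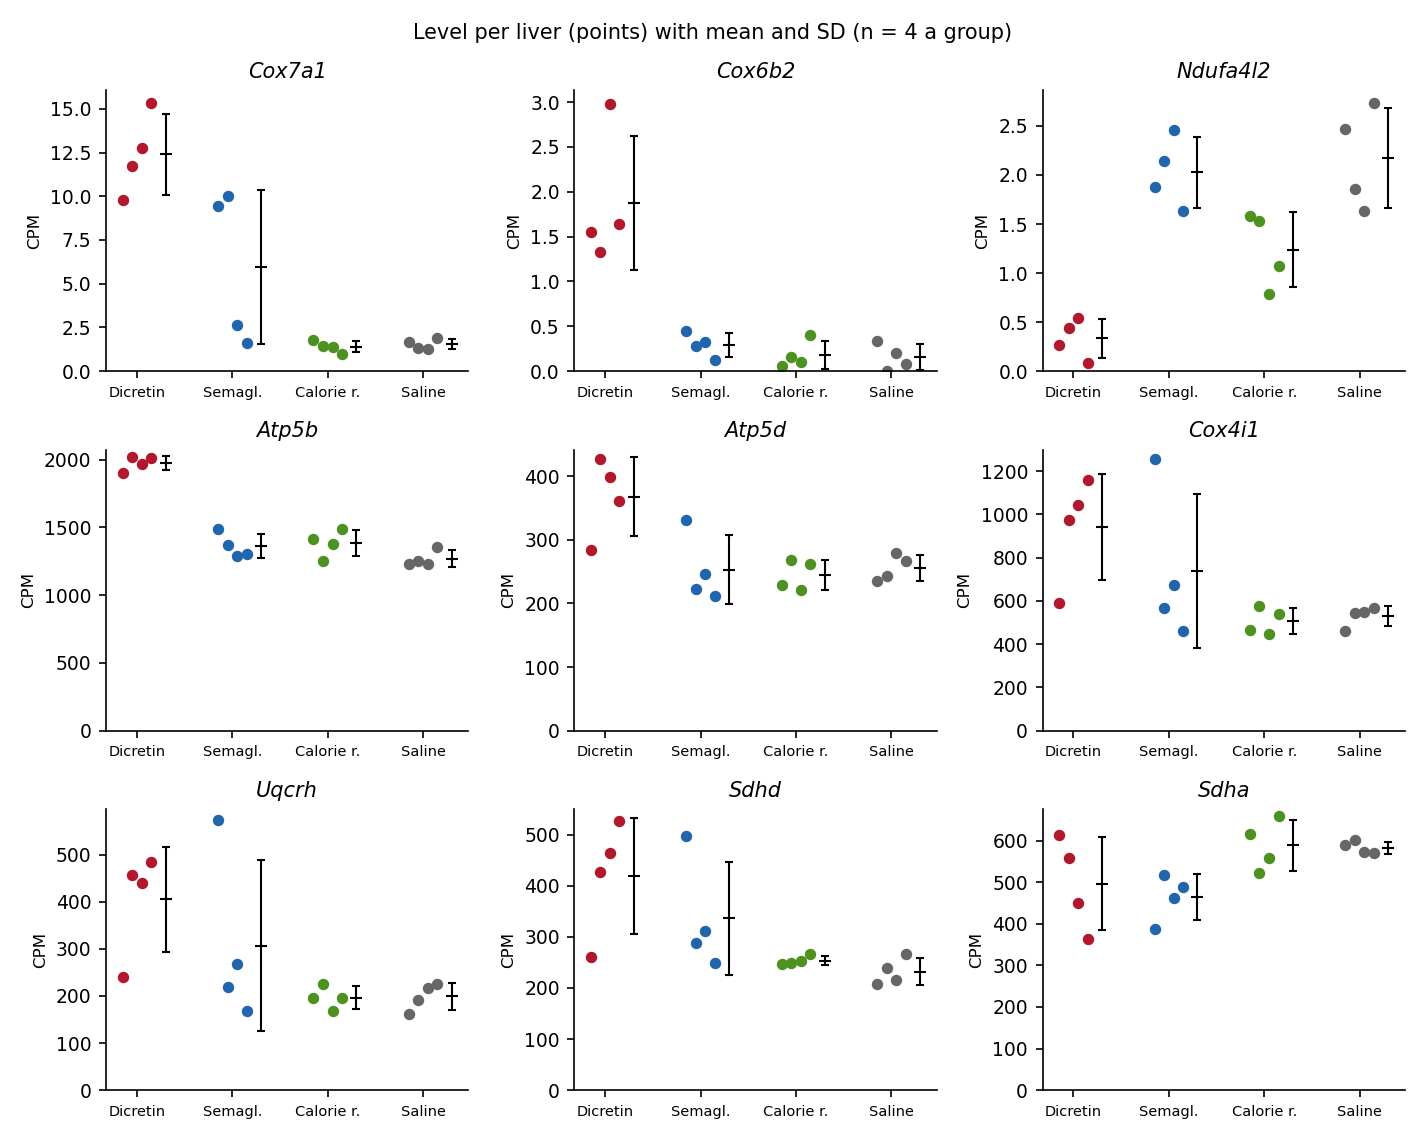
CPM of 9 members in each liver (points) with the group mean and SD (n = 4 a group), every vertical axis starting at 0. Cox7a1 and Cox6b2 are higher and Ndufa4l2 lower in Dicretin livers than in Saline livers without overlap, and Atp5b lies at 1905 to 2022 CPM in Dicretin livers, against 1228 to 1359 CPM in Saline livers.

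The members with the largest fold changes were not the common subunits but isoforms that liver transcribes at low levels. Cox7a1 is the heart and skeletal muscle isoform of the subunit for which liver mainly uses Cox7a2. It had 9.80, 11.7, 12.7 and 15.3 CPM in Dicretin livers, 9.45, 10.01, 2.66 and 1.63 CPM in Semaglutide livers, 1.81, 1.45, 1.36 and 1.002 CPM in Calorie restricted livers, and 1.69, 1.34, 1.29 and 1.90 CPM in Saline livers. All Dicretin livers were above all Calorie restricted and Saline livers, and the Semaglutide livers split, with Semaglutide 11 and 15 high. The log2 fold change was 2.99 ± 0.44 in Dicretin livers against Saline livers (adjusted p = 4.05e-05). Per kb of exon, Cox7a1 made up 5.82% to 8.54% of the sum of Cox7a1 and Cox7a2 in Dicretin livers, and 1.44% to 2.39% in Saline livers.

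Muscle RNA was checked beside this isoform. The 6 muscle markers summed to 748.9 CPM in Semaglutide 15, with Acta1 at 229.3 CPM, and to 0 to 0.068 CPM in Dicretin livers, where Acta1, Myh2, Tnnt3 and Mb were all at 0. The muscle isoforms Cox6a2 and Cox8b had 247 and 191 counts in Semaglutide 15. In the other 3 Semaglutide livers they had 0 or 1 and 0 to 3 counts. Cox6a2 had 4, 5, 5 and 4 counts in Dicretin livers, against 1, 1, 0 and 0 in Saline livers. In Semaglutide 11, where Cox7a1 was also high, every muscle marker was at 0.

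Cox6b2, the testis isoform of a subunit on the face of complex IV that meets cytochrome c, had 1.55, 1.33, 2.98 and 1.65 CPM in Dicretin livers, against 0.337, 0, 0.204 and 0.083 CPM in Saline livers. These stand for 19 to 44 reads a library in Dicretin livers and 0 to 6 in Saline livers, without overlap (log2 3.48 ± 0.62, adjusted p = 0.000268). Semaglutide livers had 2 to 6 reads and Calorie restricted livers 1 to 6. The gene thus passed the filter on low counts only through the Dicretin livers, where it is high. Its test is therefore no separate support for the rise. Cox6b2 stayed a minor transcript, at most 0.923% of the sum of Cox6b2 and Cox6b1 per kb in any Dicretin liver.

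Ndufa4l2, a paralog of Ndufa4 known as a target of hypoxia-inducible factor 1, was the 1 member that was lower. It had 0.268, 0.444, 0.542 and 0.087 CPM in Dicretin livers, against 2.47, 1.86, 1.63 and 2.73 CPM in Saline livers. The Dicretin values rest on 1 to 8 reads a library and did not overlap those of Saline livers (log2 -2.63 ± 0.40, adjusted p = 5.6e-05). Its exons share 32 bases with Shmt2 on the opposite strand, and the strand setting of the counting is not known. Ndufa4 itself did not pass (log2 0.55 ± 0.24, adjusted p = 0.0731). Ndufb3, an accessory subunit of complex I, had 51.5, 75.8, 77.6 and 78.5 CPM in Dicretin livers, against 79.2, 97.2, 103 and 93.4 CPM in Saline livers. It did not pass as measured (log2 -0.40, adjusted p = 0.216), and had an adjusted p of 0.0417 after length correction (log2 -0.34). With the trend fitted without the members the adjusted p was 0.0602, and on the union of exons Ndufb3 was not called either.

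Promoters are shown for 5 of the genes above: the isoform pair Cox7a1 and Cox7a2, and Cox6a1, Uqcrh and Sdhd, which were higher in Dicretin livers and hold a searched motif. Each line is the 200 bases before the RefSeq start (GRCm38.p6), 5′ to 3′ on the gene's strand, with motifs in capitals; the last bases before the start can belong to transcripts of another annotation.
Cox7a1 (chr7:30183971-30184170, + strand): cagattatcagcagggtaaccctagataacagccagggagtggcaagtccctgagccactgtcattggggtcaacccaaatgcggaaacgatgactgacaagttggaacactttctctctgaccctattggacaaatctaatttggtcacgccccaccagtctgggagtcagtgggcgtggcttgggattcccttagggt
Cox7a2 (chr9:79759854-79760053, - strand): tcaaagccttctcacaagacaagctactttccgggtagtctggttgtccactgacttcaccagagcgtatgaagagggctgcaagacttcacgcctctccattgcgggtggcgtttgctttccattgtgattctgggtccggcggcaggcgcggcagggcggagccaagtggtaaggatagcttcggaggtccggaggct
Cox6a1 (chr5:115348959-115349158, - strand): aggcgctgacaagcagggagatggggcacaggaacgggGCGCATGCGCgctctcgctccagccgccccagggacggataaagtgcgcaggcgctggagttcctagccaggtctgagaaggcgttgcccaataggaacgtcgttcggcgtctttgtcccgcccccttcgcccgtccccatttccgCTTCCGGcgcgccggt
Uqcrh (chr4:116075071-116075270, - strand): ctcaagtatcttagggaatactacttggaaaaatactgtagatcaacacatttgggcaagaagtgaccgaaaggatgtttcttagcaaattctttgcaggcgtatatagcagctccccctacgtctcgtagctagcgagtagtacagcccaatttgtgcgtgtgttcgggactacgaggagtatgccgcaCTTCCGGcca
Sdhd (chr9:50603850-50604049, - strand): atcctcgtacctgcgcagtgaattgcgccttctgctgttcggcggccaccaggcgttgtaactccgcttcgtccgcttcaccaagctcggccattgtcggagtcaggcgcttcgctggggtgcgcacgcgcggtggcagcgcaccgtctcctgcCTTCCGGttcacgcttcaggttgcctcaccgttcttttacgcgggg

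The motifs searched on both strands were that of NRF1 (the first run in capitals in Cox6a1), CCGGAAG of GABPA and other ETS factors, AAGATGGCG of YY1 and TCAAGGTCA of ESRRA. The window ran from 250 bases before to 50 after the start, and the ETS and YY1 letters can overlap by AAG. The Cox6a1 promoter holds the NRF1 motif 162 bases and the ETS motif 16 bases before the start. Uqcrh has the ETS motif 10 bases, and Sdhd 46 bases, before the start, and Sdhd has the ESRRA motif 37 bases after it. Of 69 members with a promoter in the RefSeq table, the ETS motif was held by 16 (23.2%, against 9.93% of 27025 genes), YY1 by 7 (10.1%, against 1.64%), NRF1 by 5 (7.25%, against 1.07%) and ESRRA by 2 (2.9%, against 0.466%). Among the 21 members with a promoter that were higher in Dicretin livers, the ETS motif was held by 4, NRF1 by 2, YY1 by 1 and ESRRA by 1. Among the 46 that did not pass, these motifs were held by 12, 3, 6 and 1. The difference between these shares was not tested. The letters are a description of these windows and show no binding.

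The drug that acts on the GLP-1 receptor alone, and weight loss by diet, were each compared with vehicle. In Semaglutide livers 1 member was higher than in Saline livers and none lower, where 1.56% of all genes were higher and 2.62% lower. The 1 call was Cox7a1 (log2 1.93 ± 0.44, adjusted p = 0.0161), which was lost without Semaglutide 11, without Semaglutide 15, and without Saline 35, 50 or 73, and the adjusted p over all alternatives ran from 0.000622 to 0.122. The median log2 fold change over the members was 0.27, and -0.05 without Semaglutide 11 and Dicretin 14. After length correction it was 0.14, with 2 members higher (all genes 4.29%), Cox7a1 and Sdhd. In Calorie restricted livers no member was called against Saline livers in edgeR's test, where 3.42% of all genes were higher and 4.11% lower. The DESeq2 Wald test (all genes 2.97% higher and 3.3% lower) and limma-voom (3.59% and 4.76%) called no member either. The median log2 fold change was -0.07.

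After length correction 3 members (3.75%) were higher in Calorie restricted livers than in Saline livers, below the 7.22% of all tested genes. They were the 3 genes of the c subunit of the ATP synthase rotor. Atp5g2, for example, had 115.3, 127.4, 108.2 and 116.2 CPM in Calorie restricted livers, against 85.2, 101.7, 104.0 and 115.5 CPM in Saline livers. As measured these overlap, and the log2 fold change was 0.20 ± 0.18 (adjusted p = 0.538); corrected, it was 0.49 (adjusted p = 0.00599). The corrected values of Atp5g1 and Atp5g3 were both 0.42 (adjusted p = 0.0137 and 0.0162). The correction on another definition of length, the union of exons, left 1 of the 3 calls (all genes 6.2%).

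Comparisons with the other treatments share the Dicretin libraries with the comparison above and are not separate evidence. Against Calorie restricted livers, 33 members were higher in Dicretin livers and 1 was lower, where 15.1% of all genes were higher and 16.2% lower, with a median log2 fold change of 0.52. These were 12 members of complex I, 1 of complex II, 3 of complex III, 11 of complex IV and 6 of complex V, and Ndufa4l2 was the lower one (log2 -1.82, adjusted p = 0.00249). Cox7a1 differed by 3.13 ± 0.44 (adjusted p = 3.44e-05) and Cox6a1 by 0.96 ± 0.20 (adjusted p = 0.00148). Length correction gave 42 higher and 1 lower (all genes 19.2% and 16.2%), and leaving out both libraries 67 higher and 2 lower (all genes 19.7% and 20.7%). The second lower member without both was Sdha (log2 -0.37, adjusted p = 0.0363). The count was 22 without Dicretin 65 (all genes 12.5% higher) and 52 without Semaglutide 11 (17.3%). Of 8 Kupffer cell and macrophage markers, 5 were higher in Dicretin livers than in Calorie restricted livers and none lower, with a median log2 fold change of 1.32 and sums of 165.6 to 452.8 CPM in Dicretin livers and 59.27 to 207.0 CPM in Calorie restricted livers; their part in the count was not tested.

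Against Semaglutide livers, 7 members were higher in Dicretin livers and 1 was lower, where 14.8% of all genes were higher and 17.1% lower, so the share of members called was below that of all genes. Among the 7 were Atp5b, Atp5d, Cox8a, Cox6a1, Cox6b2 and Cox7a1. Atp5b had 1905 to 2022 CPM in Dicretin livers, against 1487, 1373, 1291 and 1301 CPM in Semaglutide livers (log2 0.54 ± 0.12, adjusted p = 0.00168). The call of Cox6a1 (log2 0.57, adjusted p = 0.0371) was lost in 8 of 29 alternatives, among them leaving out Semaglutide 15, 31 or 51, or Dicretin 23, 64 or 65. The call of Cox7a1 (log2 1.07 ± 0.39, adjusted p = 0.0463) was lost in 16 of 29 alternatives, among them leaving out any Saline or any Calorie restricted liver, Semaglutide 31 or 51, or Dicretin 23, 64 or 65. This comparison turned on 1 library: without Semaglutide 11 the count was 38 higher (all genes 15.3%), and after length correction it was 42 higher and 2 lower (all genes 19.5% and 17.3%). Without both libraries 61 were higher and 1 lower (all genes 16.6% and 18.3%). Against Calorie restricted livers, 1 member, Cox7a1, was higher in Semaglutide livers (log2 2.06 ± 0.44, adjusted p = 0.00892), where 3.05% of all genes were higher and 3.07% lower. Cox7a1 had 9.45 and 10.01 CPM in Semaglutide 11 and 15, against 2.66 and 1.63 CPM in Semaglutide 31 and 51. Muscle markers summed to 748.9 CPM in Semaglutide 15. The call was kept without Semaglutide 11 and without Semaglutide 15, and was lost in limma-voom.

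The length trend was then set beside the members library by library. The members' median log2 deviation was 0.80 in Semaglutide 11, the highest of the 16, and other genes of that length deviated there by 0.66. In Dicretin 14 the members' median was -0.16 where other genes of that length were at -0.39. The other Dicretin livers had members at 0.40 to 0.45 and other genes at -0.03 to 0.19. All 4 Dicretin livers therefore had members above their own library's trend. So did Semaglutide 11 and Calorie restricted 79, the latter with members at -0.20 and other genes at -0.25. The trend fitted on all tested genes, members included, was then removed. The members' median after that was 0.15, 0.43, 0.27 and 0.27 in Dicretin livers, and 0.23, -0.08, -0.09 and -0.22 in Semaglutide livers. It was -0.10, -0.02, -0.14 and 0.01 in Calorie restricted livers, and -0.29, -0.17, -0.06 and -0.13 in Saline livers. Semaglutide 11, at 0.23, then lay within the Dicretin range, with a corrected median of 0.29 for its complex I members and -0.02 for its complex IV members.

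**Figure D4:**
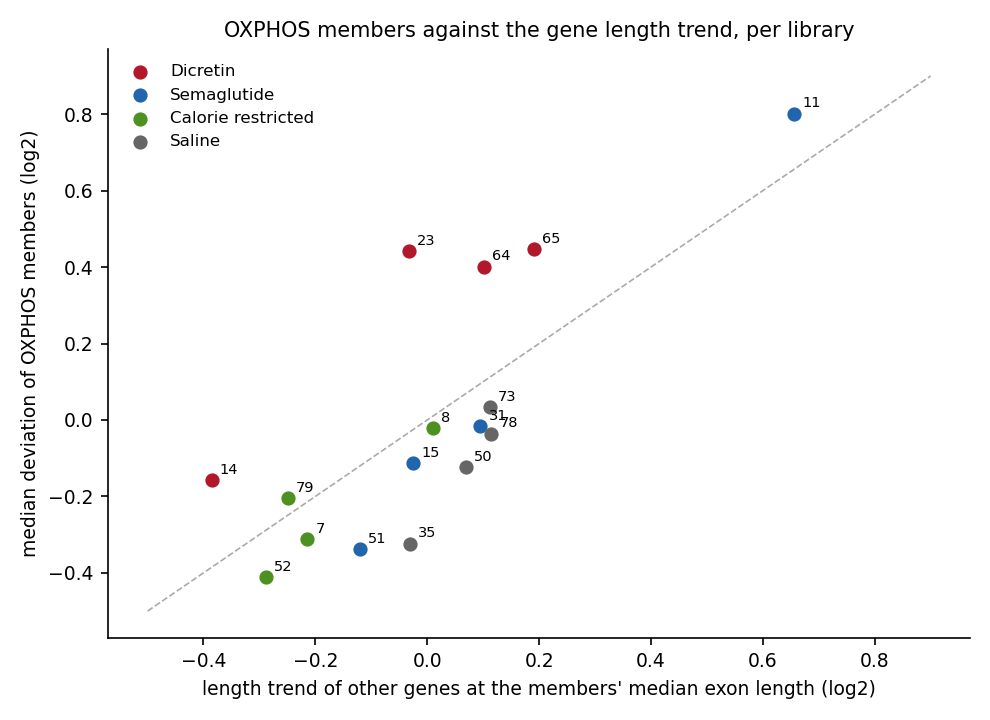
Each point is 1 liver, numbered: the length trend of genes that are no members, read at the members' median exon length (horizontal, log2), against the members' median log2 deviation (vertical); the dashed line marks equality. The 4 Dicretin livers lie above the line, Dicretin 14 at a trend of -0.39. Semaglutide 11, high on both axes, and Calorie restricted 79 also lie above it.

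By exon length, members under 600 bases had a median log2 fold change of 0.52 between Dicretin and Saline livers, against 0.12 for 286 other genes that short. In the comparison of Semaglutide with Saline livers, members under 600 bases had a median of 0.34, and the other genes 0.30. In the comparison of Calorie restricted with Saline livers these medians were -0.12 for members and -0.15 for the other genes. In the following length classes of the Semaglutide comparison, in order of length, the medians were 0.36 for members and 0.22 for other genes, 0.27 and 0.20, 0.19 and 0.12, 0.19 and 0.04, and -0.20 and -0.01. In those of the Calorie restricted comparison, members differed from other genes by less, at -0.07 and -0.17 in the second class and -0.04 and -0.01 in the last with at least 4 members. With Dicretin they lay above them in each length class with at least 4 members except the longest, where 4 members and 3013 other genes both had a median of -0.02.

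**Figure D5:**
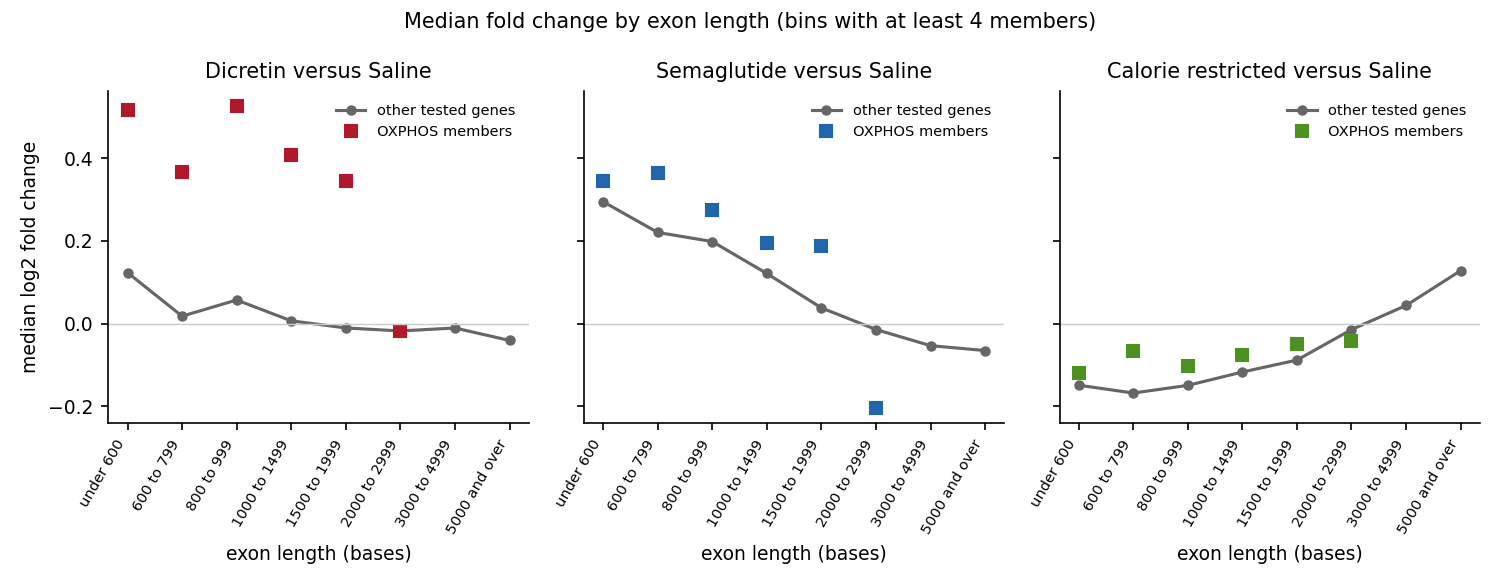
Median log2 fold change (vertical) in classes of exon length (horizontal, bases) for the members (squares, classes with at least 4 members) and for all other tested genes (joined circles), for each treatment against Saline. Squares lie above the circles in the first 5 length classes of the Dicretin panel, by 0.52 against 0.12 in the shortest, and the gap is smaller in those classes of the other panels.

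Other gene groups of the same pathway, from lists written with earlier results known, were read against the same 17.5% and 19.2%. Of 44 assembly factors, 7 were higher and 6 lower in Dicretin livers than in Saline livers, with a median log2 fold change of 0.05. Cox10, which makes the heme of complex IV, had 27.9 ± 2.5 CPM in Dicretin livers and 13.2 ± 1.8 CPM in Saline livers (SD, n = 4 each; log2 1.08, edgeR adjusted p = 7.58e-05). Cox18, which inserts a complex IV subunit into the membrane, fell by 0.91 (adjusted p = 0.000476). Of 21 electron carriers and entry enzymes, 3 were higher and 3 lower. Coq10a, a ubiquinone-binding protein, rose by 1.04 and Coq8a, needed for ubiquinone synthesis, fell by 0.63 (adjusted p = 4.36e-05 and 0.0208).

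Among 19 regulators and genes of mitochondrial DNA expression, 5 were higher and 1 lower. Esrra, the orphan receptor ERR-alpha, which activates respiratory genes, had 88.1 ± 24.3 CPM in Dicretin livers and 30.2 ± 3.0 CPM in Saline livers (SD, n = 4 each; log2 1.55, edgeR adjusted p = 9.92e-06). Its partner coactivator Ppargc1a rose by 2.83 (adjusted p = 1.08e-09) and Nrf1, nuclear respiratory factor 1, by 0.64 (adjusted p = 0.00296). Tfam, which packages mitochondrial DNA, and Gabpa, an ETS factor, had log2 fold changes of -0.05 and 0.01 and did not pass. Of 8 uncoupling proteins and carriers of nucleotides or phosphate, 2 were higher and 1 lower. Slc25a3, which imports phosphate, had 676.3 ± 152.5 CPM in Dicretin livers and 285.2 ± 12.6 CPM in Saline livers (SD, n = 4 each; log2 1.25, edgeR adjusted p = 3.96e-06). Ucp2, an uncoupling protein family member, fell by 0.76 (adjusted p = 0.0151).

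Other gene families were read against the share of all genes in the same comparison. Of 81 cytosolic ribosomal protein genes, 42 were higher in Dicretin than in Saline livers (51.9%, all genes 17.5%), with a median log2 fold change of 0.66. In Semaglutide livers 11 were higher (13.6%, all genes 1.56%), with a median of 0.76. Their summed CPM was 45850 in Semaglutide 11, 19850 to 25630 in the other Semaglutide livers and 14720 to 19340 in Saline livers. Length correction was not applied to these family counts. Shares of the families that follow were below those of all genes. Of 77 mitochondrial ribosomal protein genes 11 were higher and 1 lower in Dicretin livers, with a median of 0.23, and of 38 proteasome genes 3 were higher and 2 lower. Levels of the members themselves, as mean CPM per kb of exon over the 16 libraries, spanned a wide range, with Uqcrq (1184), Ndufa4 (1002), Cox4i1 (911.2), Atp5b (781.6) and Atp5g3 (680.0) at the top. The lowest tested members were Cox6b2 (1.35), Ndufa4l2 (1.55), Atp5s (3.58) and Cox7a1 (13.6), so the largest fold changes fell on 3 of the 4 least abundant tested members.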

How the data were processed

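The authors deposited raw read counts per gene, whole numbers with no normalization, for 16 liver libraries. Reads had been aligned and counted beforehand, with TopHat2 2.1.1, featureCounts and build mm10 listed per the submitters' processing notes. The counting options, the annotation and the strand setting are not given in the sources used here. Libraries were poly(A)-selected and directional, per the labels' protocols. Symbols and exon lengths (the principal transcript) came from GENCODE M21 (GRCm38), which named 45143 of 46078 identifiers. Exons of 27 members overlap a gene on the opposite strand and those of 5 a gene on the same strand, so their levels are uncertain.

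Counts were fitted in edgeR 4.0.16 (R 4.3.3) with filterByExpr, TMM factors and 1 quasi-likelihood model over all 16 libraries, with 6 contrasts and Benjamini-Hochberg adjustment over 12910 genes within each. The SE was the absolute log2 fold change over the square root of F. CPM used TMM-scaled totals. Length correction removed each library's loess trend (span 0.5) of log2 deviation on log2 exon length as an offset. The trend was fitted on all tested genes with a length, members included, except in the alternative fitted without them. The test was checked on simulated data. Alternatives used DESeq2 1.42.0 and limma 3.58.1, other scalings and filters, and libraries left out.

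Genes were named as all members that passed where at most 24 did, otherwise the 3 smallest p per complex and direction, plus a fixed panel. Ndufb3 and the remaining non-panel members were named after their values were seen. Members and lists were chosen with earlier results of these data known. The complex IV ratio was added after seeing the data. A gene that the rule picks is not reported here.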

Additional observations from a re-analysis of the deposited data

Results flagged for a closer look

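In 216 groups of 4 livers (43 named members, ratios between complexes and isoform shares), 20 (9.26%) held 1 liver far from the other 3, by a gap that chance gives in about 1 in 20 groups. Of these, 11 were Semaglutide 11 and 6 were Dicretin 14, the libraries at the ends of the gene length trend. Semaglutide 11 was high for Atp5e (525.9 CPM, others 101.2 to 170.9), Atp5j2 (547.0, others 182.1 to 241.8), Cox8a (284.9, others 179.7 to 190.6), Ndufa12 (127.3), Ndufs3 (291.0), Ndufs8 (191.8), Sdhb (484.3), Uqcrc1 (385.2) and Uqcrfs1 (460.9). It was low for the longer transcript Ndufs1 (127.1 CPM, others 137.4 to 139.2) and for the share of Ndufa4l2 in the sum of Ndufa4l2 and Ndufa4 (0.0997%, others 0.235% to 0.254%).

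Dicretin 14 was low for Cox6a1 (337.7 CPM, others 546.2 to 586.2), Ndufa4 (410.9), Ndufb11 (170.8), Ndufs8 (87.5), Uqcr10 (124.5) and Atp5g2 (98.0). Calorie restricted 8 was high for Ndufab1 (96.4 CPM, others 75.1 to 77.6) and low for the summed CPM of complex II over complex I (0.258) and of complex V over complex I (1.21).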

How the results depend on the processing

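Among the 43 named members, the only ones checked for this, no value changed sign past the threshold. Each count below is followed in brackets by the share of all tested genes called in the same direction. The members called higher between Dicretin and Saline livers, 23 as measured (17.5%), numbered 18 with upper quartile factors (14.9%) and 21 in limma-voom (16.8%). They were 26 with DESeq2 size factors (18.5%) and 29 in the DESeq2 Wald test (11%). TMM factors from genes of the members' length range gave 41 (20.2%). Length correction gave 57 (25.9%), the trend fitted without the members 58 (26.1%), and the trend on the union of exons 53 (24.8%). Leaving out Semaglutide 11 and Dicretin 14 gave 60 (20.6%). Lower calls were 2 after length correction (18.1%) and 2 without both libraries (21.8%). Between Dicretin and Calorie restricted livers the count, 33 (15.1%), was 67 higher (19.7%) and 2 lower (20.7%) without both libraries. Between Dicretin and Semaglutide livers the count, 7 (14.8%), was 13 with TMM factors from genes of the members' length range (16.8%). Length correction gave 42 higher (19.5%) and 2 lower (17.3%). The trend fitted without the members gave 43 higher (19.6%) and the union of exons 31 (18.8%). Higher calls were 2 with only the 2 groups fitted (9.98%) and 61 without both libraries (16.6%). Between Semaglutide and Saline livers the 1 call (1.56%) became 0 in limma-voom (1.48%), in the fit of 2 groups (1.7%) and without both libraries (1.87%). It became 2 after length correction (4.29%) and 3 on the union of exons (3.63%). Between Calorie restricted and Saline livers the count of 0 (3.42%) became 3 after length correction (7.22%) and 1 on the union of exons (6.2%). Between Semaglutide and Calorie restricted livers the 1 call (3.05%) became 2 in the DESeq2 Wald test (2.79%) and without both libraries (3.2%), and 0 in limma-voom (2.84%). The cause of these changes was not tested.

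With each library left out in turn, higher calls ran from 12 to 47 for Dicretin against Saline (all genes 13.9% to 19.9%). They ran from 22 to 52 for Dicretin against Calorie restricted (all genes 11.7% to 17.3%). Dicretin against Semaglutide had 5 to 38 higher (all genes 12.7% to 15.3%) and 1 to 2 lower (14.5% to 16.9%). Semaglutide had 0 to 1 higher against Saline (all genes 0.566% to 2.72%) and 1 to 4 against Calorie restricted (1.53% to 4.44%). The Dicretin minus Saline difference of the complex IV ratio, 0.125, was 0.116 to 0.132 in the same way, and 0.0839 without Cox4i1. No paired analysis was possible because the groups share no replicate number. Cox6b2 and Ndufa4l2 rest on few reads, where depth limits precision. Cox6b2 passed the filter on low counts only through the Dicretin livers.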
